A study of Mus musculus with 6 samples.

Results

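The interferon response is the cell's transcriptional answer to interferons, cytokines released when viral nucleic acid is sensed. The interferon receptors lead through Janus kinases to STAT transcription factors, and cytosolic RNA sensors lead to IRF transcription factors. These factors switch on genes whose products block viral replication, tag or cut viral RNA, or guard the cytosol. Many of these genes also run at a low level in cells that meet no virus. The set described here holds 44 genes of this response, chosen by symbol as a list of sensors, transcription factors, antiviral effectors, ISGylation and PARP genes, interferon-gamma GTPases and other induced proteins. Genes of antigen presentation and the p200 family were not part of it. Of the 44 genes, 41 had a probe set of their own among 18193 genes, and 37 lay above an intensity filter that 13658 genes passed.

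The cells were brown preadipocytes of mouse, immortalised with SV40 large T antigen and profiled after 7 days of differentiation, on 6 one-colour arrays in 3 groups of 2. The knockdown group lacked PGC-1α and carried an siRNA against PGC-1β. The knockout-control group lacked PGC-1α and carried a control siRNA. The wild-type group kept both coactivators, and its titles name no siRNA. A passage number of the cells and a mixed background of the donor mouse are given for wild-type samples only. Genotype, siRNA vector and cell line therefore cannot be told apart in any comparison with wild type, nor the siRNA's target and its other effects in the comparison of knockdown with knockout-control cells. The sources used here do not say whether each line is a single clone, and they describe the replicates as biological.

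Ppargc1b, the knockdown target, had intensities of 533.8 and 223.8 in knockdown cells, 1862 and 2302 in knockout-control cells, and 2850 and 3162 in wild-type cells. It fell 5.53-fold in knockdown against knockout-control cells (limma adjusted p = 0.022). Ppargc1a, the knockout target, had 1146 and 647.8 in knockdown cells, 767.4 and 830.4 in knockout-control cells and 1338 and 1319 in wild-type cells. It was lower on each of the 4 knockout arrays without passing (limma adjusted p = 0.125 for knockout-control and 0.151 for knockdown against wild type), and whether its probe set lies in the deleted stretch was not tested. Of 12 brown adipocyte markers with a probe set, 12 lay above the filter, and they summed to between 48220 and 51930 in knockdown cells, 63020 and 65770 in knockout-control cells and 67350 and 67570 in wild-type cells. Ucp1 averaged 130.2 ± 36.1 in knockdown cells, 3962 ± 335 in knockout-control cells and 4625 ± 193 in wild-type cells (SD, n = 2 each). Between knockdown and knockout-control 4 of the 12 fell and 0 rose, beside 0.564% and 0.271% of all genes. In knockout-control against wild-type cells 1 rose, Elovl3 (7.12-fold), and 1 fell, Zic1 (2.09-fold), beside 2.55% and 3.5% of all genes. In knockdown against wild-type cells 1 rose, Elovl3 (8.01-fold), and 6 fell, beside 4% and 6% of all genes. The 15 macrophage and myeloid markers, of which 11 lay above the filter, summed to between 5050 and 5632 in knockdown cells, 5796 and 6072 in knockout-control cells and 5634 and 5636 in wild-type cells, with none at 0. Lymphocyte markers (3 of 7 above the filter) and endothelial markers (2 of 5) had no called gene. Between knockdown and knockout-control cells 1 of the 11 was called, beside 0.835% of all genes. It was C1qa, a complement gene of macrophages, which fell 2.01-fold (limma adjusted p = 0.0412). Of the 11, 3 had a positive and 8 a negative log2 fold change, at a median of -0.10. Cd68, under the filter, had 213.4 and 200.5 in knockdown cells and 79.87 and 117.3 in knockout-control cells. The part of C1qa in the results below was not tested. Ccr9, a chemokine receptor of lymphoid and plasmacytoid dendritic cells, fell 1.63-fold in knockdown against wild-type cells (limma adjusted p = 0.023), and its part was not tested either. Of the 2 plasmacytoid markers 1 lay above the filter, namely Ccr9. The 2 summed to between 1337 and 1512 in knockdown cells, 2186 and 2404 in knockout-control cells and 2179 and 2342 in wild-type cells. Most of that sum was Ccr9, which averaged 1293, 2122 and 2128 in these groups. Siglech, under the filter, averaged 130.9, 172.6 and 131.9.

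The response element bound by STAT and IRF factors was looked for in the promoters. The genes were chosen as interferon response genes, which these factors switch on. The share of genes with a match therefore describes the list and is no independent test of it. Of the 44 genes, 34 had at least 1 RefSeq promoter window on GRCm38.p6, running from 250 bases before the start site to 50 bases from it. The core of the interferon-stimulated response element, spelled as GAAA, any 2 bases and GAAA, read on both strands and with overlapping matches kept, was present in 19 of the 34 genes (55.9%), against 3.99% of 27025 genes. The palindrome TTCNNNGAA of the gamma-activated sequence, which can share bases with the first core, was present in 11 of the 34 (32.4%), against 9.55% of all genes. The windows of Ifit1, Bst2 and Ifih1 are printed because these are the genes with large or called differences whose windows held the first core, which is in capitals. Each runs 5′ to 3′ on the gene's strand.
Ifit1 (chr19:34640639-34640938, plus strand): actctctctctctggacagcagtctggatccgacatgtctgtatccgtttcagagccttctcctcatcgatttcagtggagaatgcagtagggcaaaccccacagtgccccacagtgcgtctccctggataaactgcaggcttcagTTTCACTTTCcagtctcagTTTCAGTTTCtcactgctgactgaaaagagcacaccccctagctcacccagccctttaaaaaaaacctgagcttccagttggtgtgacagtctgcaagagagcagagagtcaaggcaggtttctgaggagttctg
Bst2 (chr8:71537423-71537722, minus strand): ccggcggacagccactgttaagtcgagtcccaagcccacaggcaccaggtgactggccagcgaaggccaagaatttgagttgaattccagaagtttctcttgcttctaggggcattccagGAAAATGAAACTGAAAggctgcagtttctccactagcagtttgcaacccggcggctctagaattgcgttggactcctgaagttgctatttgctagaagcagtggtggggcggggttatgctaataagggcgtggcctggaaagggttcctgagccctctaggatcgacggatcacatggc
Ifih1 (chr2:62646206-62646505, minus strand): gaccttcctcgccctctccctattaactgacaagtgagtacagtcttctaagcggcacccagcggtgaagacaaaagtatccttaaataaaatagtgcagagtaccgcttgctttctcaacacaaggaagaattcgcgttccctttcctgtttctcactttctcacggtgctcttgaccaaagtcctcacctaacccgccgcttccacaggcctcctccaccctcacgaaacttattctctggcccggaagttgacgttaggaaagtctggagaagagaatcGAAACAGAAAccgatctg

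Ifit1 held 2 matches on the opposite strand, whose first bases lie 104 and 85 bases before the start site. Bst2 held 2 overlapping matches on its own strand, at 130 and 124 bases before the start, and Ifih1 held 1 match at 33 bases from the start, inside the transcript. Neither of the 2 windows of Ifit2 held the core, while 1 of them held TTCNNNGAA. A match is a run of letters, not a measured binding site. Among the genes above the filter, the 17 with the first core had a median log2 fold change of -0.05 between knockout-control and wild-type cells, and the 13 without it 0.01. Between knockdown and knockout-control cells the medians were 0.28 with the core and 0.13 without it, and between knockdown and wild-type cells 0.09 with it and 0.23 without it.

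Expression across the 6 arrays is shown for the 36 genes with a value on each of them.

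**Figure D1:**
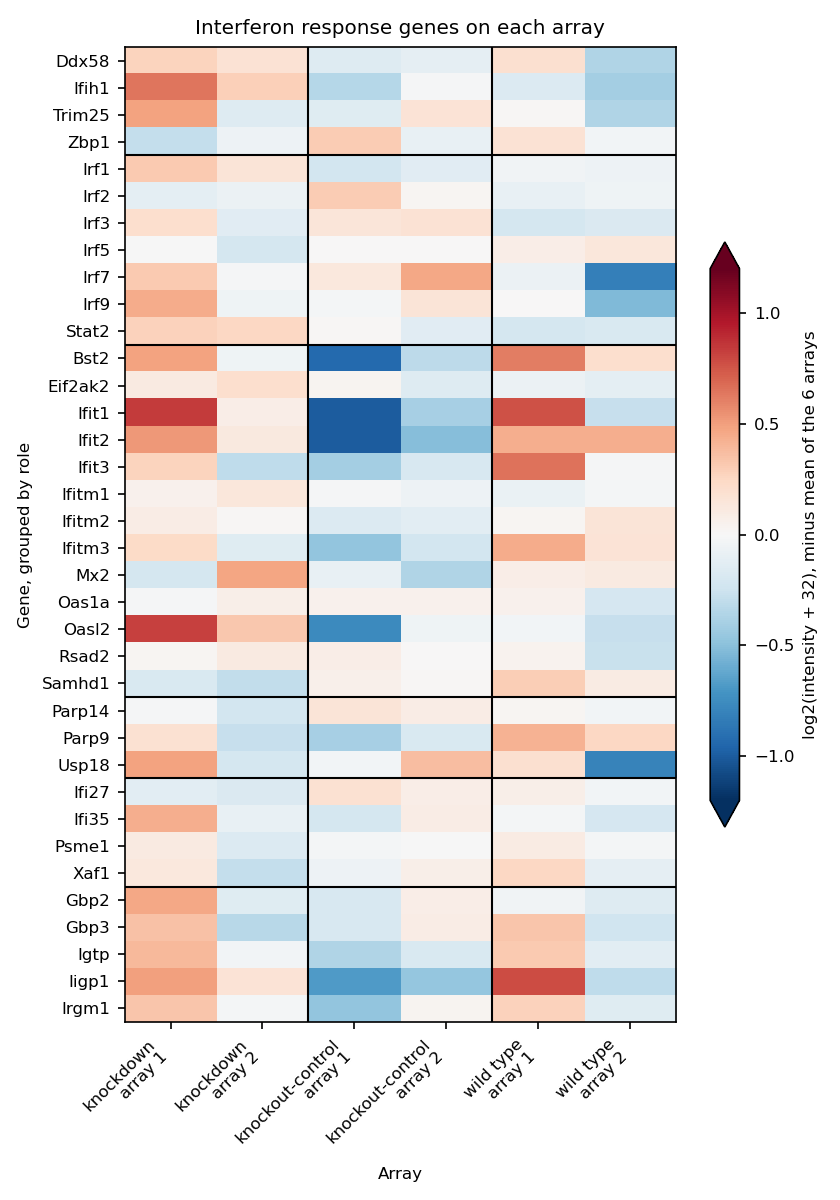
Level of each interferon response gene (rows, grouped by role from sensors at the top to interferon-gamma GTPases at the bottom) on each array (columns), as log2(intensity + 32) minus the gene's mean over the 6 arrays. Ifit1, Ifit2, Bst2 and Iigp1 are low on both knockout-control arrays, and many genes are higher on wild-type array 1 than on wild-type array 2.

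The first comparison set knockout-control against wild-type cells and asked what differed with PGC-1α. Of the 37 genes tested, 0 rose, 1 fell and 36 did not pass (limma on all 6 arrays, p adjusted by Benjamini-Hochberg over all genes tested). The gene that fell is Ifit2, whose product binds RNA and blocks translation of viral transcripts. Over all 13652 genes tested, 6.05% passed, 3.5% lower and 2.55% higher, so 1 of 37 (2.7%) lay near the background. At an unadjusted p under 0.05, 7 of the 37 were lower and 1 was higher, against 21.1% of all genes in either direction. The median log2 fold change was -0.05 for the 37 genes and 0.00 for all genes, and it was 0.095 for the 37 genes without wild-type array 1. Bulk arrays cannot tell fewer cells of a type from less RNA per cell.

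Ifit2 had intensities of 89.71 and 138.1 in knockout-control cells, against 297.2 and 296.7 in wild-type cells. Both knockout-control arrays lay below both wild-type arrays. On the scale of log2(intensity + 32), which understates the change of dim genes, it fell 2.29-fold (log2 fold change -1.19 ± 0.20 SE, limma adjusted p = 0.0127). Both knockout-control values lie under the filter of 163.6, which Ifit2 passed through its mean over all 6 arrays, and with no filter the call was lost (limma adjusted p = 0.0561). The call did not hold either when wild-type array 1 (adjusted p = 0.0693), wild-type array 2 (0.0715) or the first knockout-control array (0.101) was left out, at log2 fold changes between -1.43 and -0.95 over the fits that left out 1 array.

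Bst2 encodes tetherin, which holds budding virus at the cell surface. It stood at 255.7 and 409.4 in knockout-control cells and at 810.2 and 597.6 in wild-type cells. The groups did not overlap, and the difference of -1.03 ± 0.26 on the log2 scale did not pass (limma adjusted p = 0.0567). Ifit1, which binds viral RNA lacking cap methylation, had 108.8 and 180.3 in knockout-control cells and 444.2 and 198.9 in wild-type cells. Its 2 wild-type arrays differed by 1.05 on the log2 scale, more than the group difference of -0.94 ± 0.37 (limma adjusted p = 0.192). Ifit3, a partner of Ifit1, had 378.1 and 443.9 against 822.2 and 505.6 in wild-type cells, and did not pass either (-0.62 ± 0.26, limma adjusted p = 0.216).

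None of the other lower genes passed. Ifitm3, which keeps virus from fusing out of endosomes, had 2499 and 2990 in knockout-control cells and 4766 and 3904 in wild-type cells (-0.65 ± 0.19, limma adjusted p = 0.083). Parp9, an ADP-ribosyltransferase, had 705.7 and 823.9 in knockout-control cells and 1266 and 1123 in wild-type cells (-0.62 ± 0.19, limma adjusted p = 0.0945). Iigp1, a GTPase that attacks the vacuoles of intracellular parasites, had 254.9 and 301 in knockout-control cells and 758.8 and 338.6 in wild-type cells (-0.81 ± 0.31, limma adjusted p = 0.183). In the limma fit on the 4 arrays of these groups alone, 4 of the 37 genes fell, namely Bst2, Ifit2, Ifitm3 and Parp9, which is 10.8% against 7.82% of all genes that fell and 13.1% that passed in either direction. Leaving out either knockdown array gives that same fit again. Iigp1 passed only without wild-type array 2.

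The groups did not overlap for 13 of 36 genes lower in knockout-control cells (36.1%, against 30.1% of all genes) and for 6 of 36 higher there (16.7%, against 28%). The 6 were Irf7, Irf3, Irf2, Stat2, Ifi27 and Parp14, on their brightest probe sets. Further probe sets above the filter kept the positive sign for Irf3, Stat2 and Ifi27 (0.392, 0.301 and 0.119). A dim Parp14 probe set under the filter had 121.4 and 87.42 in knockout-control cells and 264.3 and 173.4 in wild-type cells. A dim Irf3 probe set was lower in knockout-control cells as well. Irf7, the factor that amplifies interferon production, had 383.2 and 493.3 in knockout-control cells and 330.5 and 183.4 in wild-type cells (0.74 ± 0.25, limma adjusted p = 0.136). Among the 8 transcription factors 0 passed, with log2 fold changes from -0.13 to 0.74, and among the 13 antiviral effectors tested the median was -0.25.

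**Figure D2:**
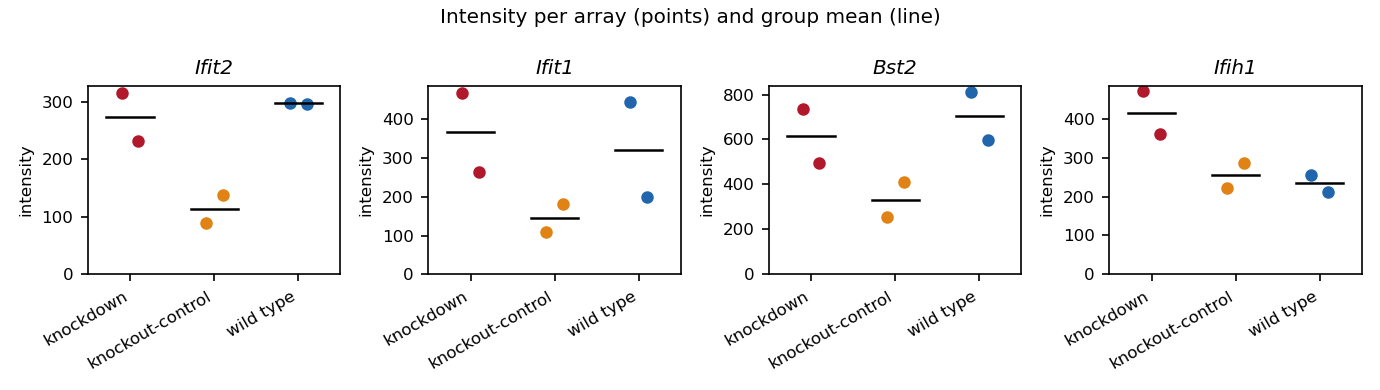
Intensity of Ifit2, Ifit1, Bst2 and Ifih1 on each array, with points for the 2 arrays of each group and a line for their mean, on linear axes that start at 0. Knockout-control arrays lie below all others for Ifit2, Ifit1 and Bst2, and both knockdown arrays lie above all others for Ifih1.

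The second comparison set knockdown against knockout-control cells and asked what differed once PGC-1β was lowered as well. Of the 37 genes, 0 passed in limma, with 0.835% of all 13649 genes called, 0.271% higher and 0.564% lower. At an unadjusted p under 0.05, 8 of the 37 were higher and 0 lower, against 14.1% of all genes in either direction. The median log2 fold change was 0.20 for the 37 genes and -0.01 for all genes. Without knockdown array 1 the 37 genes' median was 0.007, without the first knockout-control array 0.085, and without knockdown array 2 it was 0.33. The groups did not overlap for 14 of 36 genes higher in knockdown cells (38.9%, against 17.1% of all genes) and for 5 lower there (13.9%, against 21.4%). The knockout-control arrays enter this comparison and that with wild type, so a value that is low on those arrays appears in both with opposite signs.

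Ifit2 had 316 and 232.1 in knockdown cells, against 89.71 and 138.1 in knockout-control cells. The groups did not overlap, and the log2 fold change of 1.08 ± 0.20 did not pass (limma adjusted p = 0.0564). Over the 6 fits that left out 1 array it ranged from 0.83 to 1.32 and passed in 1, without knockdown array 2 (limma adjusted p = 0.0395), with the highest adjusted p, 0.31, without knockout-control array 1. Adjusted p was 0.0381 with median scaling, 0.0409 after quantile normalization, 0.0375 with trend and robust settings, 0.141 with the replicate block and 0.169 with no filter.

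Ifit1 had 468.3 and 264.3 in knockdown cells and 108.8 and 180.3 in knockout-control cells (1.16 ± 0.37, limma adjusted p = 0.211). Oasl2, an oligoadenylate synthetase-like protein, had 374.1 and 255.8 in knockdown cells and 103.5 and 190.2 in knockout-control cells (0.98 ± 0.26, limma adjusted p = 0.132). Iigp1 had 611.2 and 482 against 254.9 and 301 in knockout-control cells (0.90 ± 0.31, limma adjusted p = 0.245). In each of these genes the lower knockdown array lay above the higher knockout-control array.

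Bst2 had 736.3 and 497.3 in knockdown cells and 255.7 and 409.4 in knockout-control cells (0.84 ± 0.26, limma adjusted p = 0.196). With knockout-control array 1 left out it was 0.53 (limma adjusted p = 0.684). Irf1, a factor that acts early in the response, had 1737 and 1554 in knockdown cells and 1192 and 1261 in knockout-control cells (0.41 ± 0.14, limma adjusted p = 0.239). Knockdown array 1 was the higher of the pair for 29 of the 36 genes with a value on every array (80.6%), as it was for 74.2% of all genes. On their brightest probe sets, the 5 genes lower in knockdown cells with groups apart were Ifi27, Irf2, Irf5, Parp14 and Samhd1. Their log2 fold changes lay between -0.29 and -0.11. Further probe sets above the filter kept that sign for Ifi27 and Irf5 (-0.315 and -0.051) but not for Samhd1 (0.219, 0.052 and 0.023). A dim Samhd1 probe set under the filter was lower in knockdown cells. A dim Parp14 probe set under it was higher, at 160.9 and 142.9 against 121.4 and 87.42 in knockout-control cells. Ifi27, a mitochondrial protein, had 6281 and 6078 in knockdown cells and 7826 and 7265 in knockout-control cells.

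The last comparison set knockdown against wild-type cells, for the joint loss of both coactivators. Of the 37 genes, 1 rose and 0 fell in limma, against 4% and 6% of all 13644 genes, 10% in either direction. The gene that rose, Ifih1, encodes MDA5, a sensor of long double-stranded RNA. It had 472 and 361 in knockdown cells, 222.4 and 287.3 in knockout-control cells and 255.8 and 211.9 in wild-type cells. Both knockdown arrays lay above the other 4. It rose 1.68-fold over wild type (0.75 ± 0.19, limma adjusted p = 0.0417), and over knockout-control cells the difference was 0.64 ± 0.19 (limma adjusted p = 0.17). Of the 6 fits that left out 1 array, the call over wild type held only without knockdown array 2, and adjusted p without wild-type array 1 or 2 was 0.128 and 0.297.

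Stat2, the STAT of the type I interferon complex, had 392.5 and 385.3 in knockdown cells, 322.9 and 288.3 in knockout-control cells and 270.7 and 277 in wild-type cells. Knockdown exceeded wild type by 0.46 ± 0.14 without passing (limma adjusted p = 0.0749). A second, dimmer probe set of Stat2 passed when every probe set was tested on its own (0.80 ± 0.19, limma adjusted p = 0.0339), in a fit that called 9.93% of 22715 probe sets, 3.88% as higher. Oasl2 stood at 374.1 and 255.8 in knockdown cells and at 193.3 and 157.9 in wild-type cells (0.73 ± 0.26, limma adjusted p = 0.119). Ifit2, Ifit1 and Bst2 overlapped between these groups, at -0.12 ± 0.20, 0.22 ± 0.37 and -0.19 ± 0.26. Over the 37 genes the groups did not overlap for 9 higher in knockdown cells (24.3%, against 24.6% of all genes) and for 5 lower there (13.5%, against 30.4%).

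**Figure D3:**
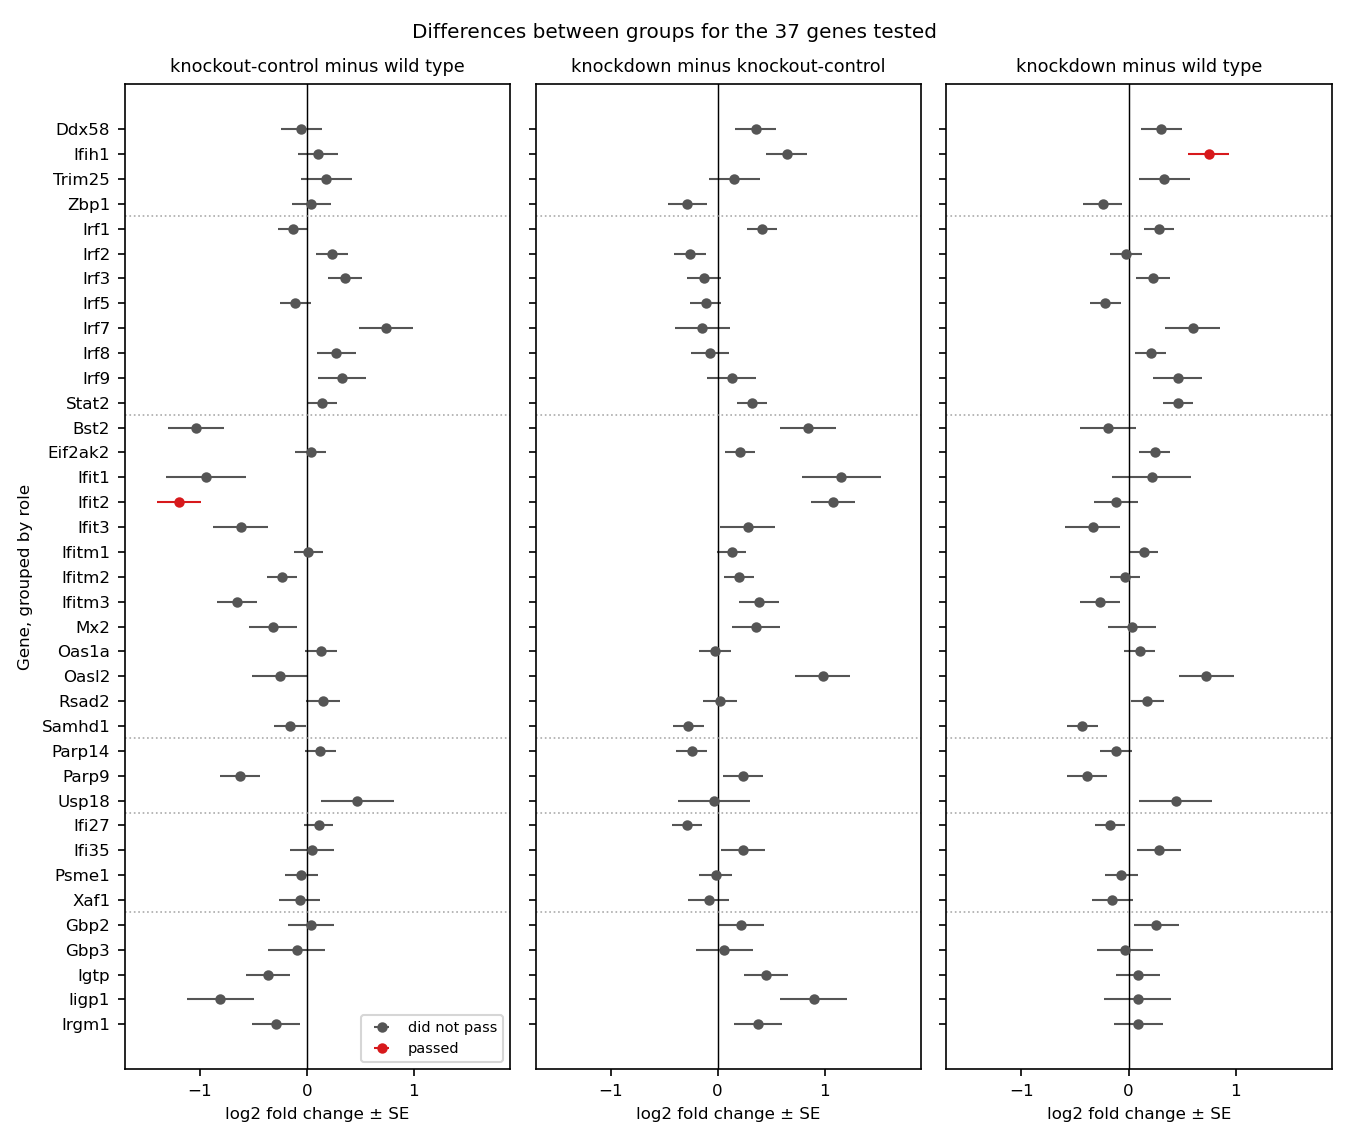
Log2 fold change with its SE from limma for the 37 genes tested, in 3 comparisons side by side, with genes grouped by role and genes that passed in red. Ifit2 passed between knockout-control and wild type at -1.19, Ifih1 between knockdown and wild type at 0.75, and 0 genes between knockdown and knockout-control.

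By role, none of the tested sensors other than Ifih1 passed in any comparison on its brightest probe set. Ddx58, the sensor RIG-I, had log2 fold changes of -0.05 ± 0.19 between knockout-control and wild type and 0.35 ± 0.19 between knockdown and knockout-control. Trim25, the ubiquitin ligase that assists RIG-I, had 0.18 ± 0.24 and 0.15 ± 0.24, and Zbp1, a sensor of Z-form nucleic acid, 0.04 ± 0.18 and -0.28 ± 0.18. A further probe set of Trim25 stood 0.49 ± 0.18 higher in knockdown cells than in knockout-control and in wild-type cells. It did not pass when every probe set was tested (limma adjusted p = 0.281 and 0.122). Another stood 0.70 ± 0.25 above wild type without passing (limma adjusted p = 0.115). Among the other effectors, Oas1a, Rsad2, Ifitm1 and Eif2ak2 lay between 0.01 and 0.15 in knockout-control against wild type. Mx2, Oasl2, Ifitm2 and Samhd1 lay between -0.32 and -0.16 there, without passing. Further probe sets of Eif2ak2 and Rsad2 stood at -0.32 ± 0.15 and -0.11 ± 0.19 in that comparison. Eif2ak2 encodes PKR, which halts translation on double-stranded RNA, and Rsad2 encodes viperin. The deISGylase Usp18 had 488.9 and 291.2 in knockdown cells, 333.6 and 450.6 in knockout-control cells and 394.5 and 182.8 in wild-type cells, and its groups overlapped in each comparison. The proteasome activator Psme1 stayed between 2539 and 3084 on all 6 arrays.

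Of the genes not tested, Dhx58, Mx1, Oas2 and Oas3 lay under the filter of 163.6. Mx1, a GTPase that traps viral capsids, had 86.41 and 77.95 in knockdown cells, 55.54 and 31.61 in knockout-control cells and 65.47 and 39.1 in wild-type cells. Oas2 had 92.93 and 130.1 in knockdown cells, 50.97 on the 1 knockout-control array with a value, and 82.36 and 61.53 in wild-type cells. In a limma fit with no filter, 0 of these 4 genes passed (adjusted p from 0.298 to 0.935). The probe sets for Isg15 and Psme2 each carry a second gene's symbol, and Ifi44 had no probe set named for it, so these 3 genes were not analysed here.

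Genes with several probe sets did not always give the same sign. A dimmer probe set of Dhx58 had 126.1 and 72.7 in knockdown cells, 34.51 and 91.26 in knockout-control cells and 219 and 201.5 in wild-type cells, a pattern unlike that of its brightest one. A dim probe set of Rsad2 had 207.3 and 128.8 in knockdown cells, 103.2 and 111.5 in knockout-control cells and 220.4 and 110.5 in wild-type cells. Over 18 further probe sets above the filter, in 13 of the genes, 10 had the sign of the brightest one between knockout-control and wild type and 7 the opposite sign, with 1 of Trim25 at 0.00. Between knockdown and knockout-control 14 had the same sign and 4 the opposite.

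The 2 wild-type arrays differed in these genes more than in others. Over 13344 genes with a value on each array, array 1 exceeded array 2 for 43.3%, at a median difference of -0.02 on the log2 scale. Of the 36 interferon response genes, 29 (80.6%) were higher on wild-type array 1, at a median difference of 0.22. The difference was over 0.5 in size for 8 of the 36 (22.2%), against 1.75% of all genes. It was 1.09 for Iigp1, 1.05 for Ifit1, 0.99 for Usp18, 0.75 for Irf7, 0.67 for Ifit3, 0.57 for Gbp3, 0.55 for Ddx58 and 0.54 for Irf9. Ifit2 differed by less than 0.01. Between the knockout-control arrays 11 of 36 were higher on array 1 (30.6%, against 30.6% of all genes), and 11.1% differed by over 0.5, against 6.02%. In knockdown cells 27.8% differed by over 0.5, against 17.1% of all genes.

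**Figure D4:**
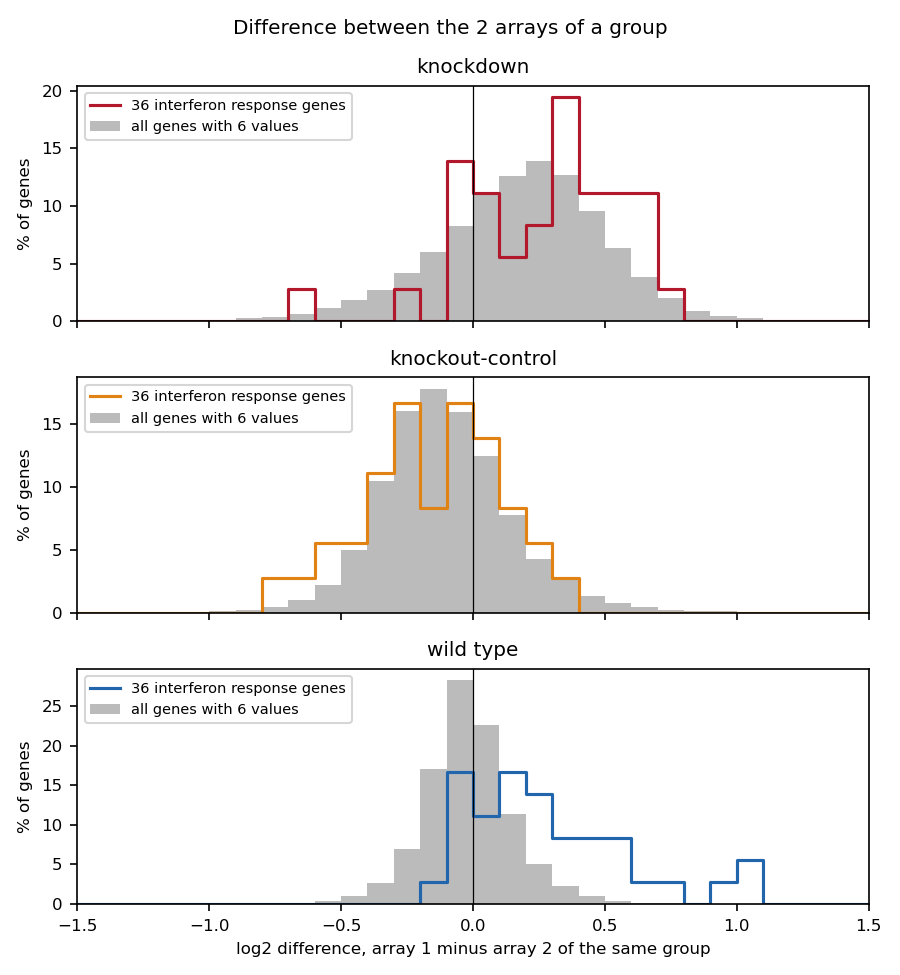
Distribution of the log2 difference between the 2 arrays of each group, with bars for the 13344 genes with 6 values and a line for the 36 interferon response genes, as a percentage of genes per bin of 0.1. In wild type the bars centre near 0 while the line reaches 1.09, and in the other groups the line and the bars overlap more.

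Of 9 ligand and receptor genes tested out of 13 listed, 1 rose and 2 fell in knockout-control against wild-type cells, where 2.55% of all genes rose and 3.5% fell. The other 6 did not pass, among them the partner chains Ifnar2 and Ifngr2 (limma adjusted p = 0.126 and 0.0856). Ifngr1, the ligand-binding chain of the interferon-gamma receptor, had 2685 and 1986 in knockdown cells, 2616 and 3301 in knockout-control cells and 748.7 and 800.8 in wild-type cells. It rose 3.68-fold in knockout-control cells (1.88 ± 0.19, limma adjusted p = 0.00115) and 2.9-fold in knockdown cells (1.54 ± 0.19, limma adjusted p = 0.00256), both over wild type, and passed in each fit that left out 1 array. Ifnar1, a chain of the type I interferon receptor, had 548 and 388.3 in knockdown cells, 418.3 and 469.5 in knockout-control cells and 1015 and 1013 in wild-type cells. It fell 2.2-fold in knockout-control cells and 2.12-fold in knockdown cells (limma adjusted p = 0.00934 and 0.00908), and both calls were lost without either wild-type array (highest adjusted p = 0.0633), the first also without knockout-control array 1 (0.0877). Its other probe set, under the filter, had 160.3 and 157 in knockdown cells, 148.4 and 98.97 in knockout-control cells and 119.3 and 101.5 in wild-type cells. With the mean of the probe sets neither call held (-0.51 and -0.33, limma adjusted p = 0.117 and 0.241). Il10rb, a receptor chain shared by interferon lambda and interleukin 10, fell 2.09-fold in knockout-control cells (limma adjusted p = 0.0168), while its second probe set stood 0.56 ± 0.18 higher there without passing. The call on Il10rb was lost without either wild-type array or knockout-control array 1 (highest adjusted p = 0.128).

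Of 23 signalling and sensing genes tested, 0 rose and 1 fell in knockout-control against wild-type cells, beside 6.05% of all genes called. The kinase gene Jak1 had 1641 and 1956 in knockout-control cells and 2783 and 2799 in wild-type cells (-0.63 ± 0.15, limma adjusted p = 0.0468), a call lost without any 1 of these 4 arrays (highest adjusted p = 0.321). Between knockdown and knockout-control 0 of the 23 passed in limma and 1 had an unadjusted p under 0.05. Between knockdown and wild type 2 of the 23 rose, beside 4% of all genes, namely Stat3 (0.63 ± 0.15, limma adjusted p = 0.0317) and Jak2 (0.58 ± 0.15, limma adjusted p = 0.0486). Jak2 passed in 0 and Stat3 in 2 of the 6 fits that left out 1 array.

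A wider list of 73 other interferon-induced genes, 50 of them tested, had 0 genes rise and 4 fall in knockout-control against wild-type cells, beside 3.5% of all genes that fell and 6.05% called. Ly6e, a membrane protein that alters viral entry, had 2652 and 1756 in knockdown cells, 685.4 and 836.5 in knockout-control cells and 2412 and 2035 in wild-type cells. It fell 2.85-fold in knockout-control against wild-type cells (-1.51 ± 0.22, limma adjusted p = 0.0057) and rose 2.78-fold in knockdown against knockout-control cells (1.47 ± 0.22, limma adjusted p = 0.0312). The fall was lost without knockout-control array 1 (adjusted p = 0.0624), and the rise without knockout-control array 1 or 2 (0.22 and 0.134). Knockdown and wild-type values of Ly6e overlapped.

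Gbp6, a guanylate-binding GTPase, had 317.2 and 246.4 in knockdown cells, 161.6 and 103.4 in knockout-control cells and 449.8 and 392.2 in wild-type cells. It fell 2.79-fold in knockout-control cells (limma adjusted p = 0.00498), in each fit that left out 1 array. Both knockout-control values lie under the filter, which Gbp6 passed through its mean over all arrays, and with no filter adjusted p was 0.0305. Trim30a had 272.6 and 253.1 in knockdown cells, 165 and 171.3 in knockout-control cells and 509.8 and 355 in wild-type cells, a fall of 2.29-fold in knockout-control cells (limma adjusted p = 0.0078) that did not pass with the first array of either group left out (highest adjusted p = 0.0731). In both genes the knockout-control arrays were the lowest of the 6 and the wild-type arrays the highest.

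Ifi27l2a had 626.9 and 550.1 in knockdown cells, 495.4 and 535.3 in knockout-control cells and 1740 and 1457 in wild-type cells. It fell 2.97-fold in knockout-control and 2.62-fold in knockdown cells against wild type (limma adjusted p = 0.00109 and 0.00165). The dimmer probe sets of Epsti1 lay under the filter, and their knockdown and knockout-control values overlapped or were incomplete. On its brightest probe set Epsti1 had 358.6 and 342.6 in knockdown cells and 672.2 and 707.1 in knockout-control cells, and fell 1.89-fold (limma adjusted p = 0.0335). That call was lost without any 1 of the knockout-control and wild-type arrays (highest adjusted p = 0.184). In knockdown against wild-type cells 4 of the 50 rose and 2 fell, beside 4% and 6% of all genes, the risers with the largest change being Tdrd7 (1.07 ± 0.18), Isg20 (1.04 ± 0.25) and Rnf114 (0.91 ± 0.16). A second Tdrd7 probe set above the filter stood at -0.18 ± 0.19 against wild type, and with the mean of its probe sets the gene did not pass (0.45, limma adjusted p = 0.174). Of these 3, Tdrd7 lost its call without wild-type array 2 (adjusted p = 0.0773), Rnf114 without either wild-type array (highest 0.0917) and Isg20 without either wild-type array or knockdown array 1 (highest 0.198). The median of the 50 genes was -0.06 between knockout-control and wild type, 0.19 between knockdown and knockout-control and 0.02 between knockdown and wild type.

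**Figure D5:**
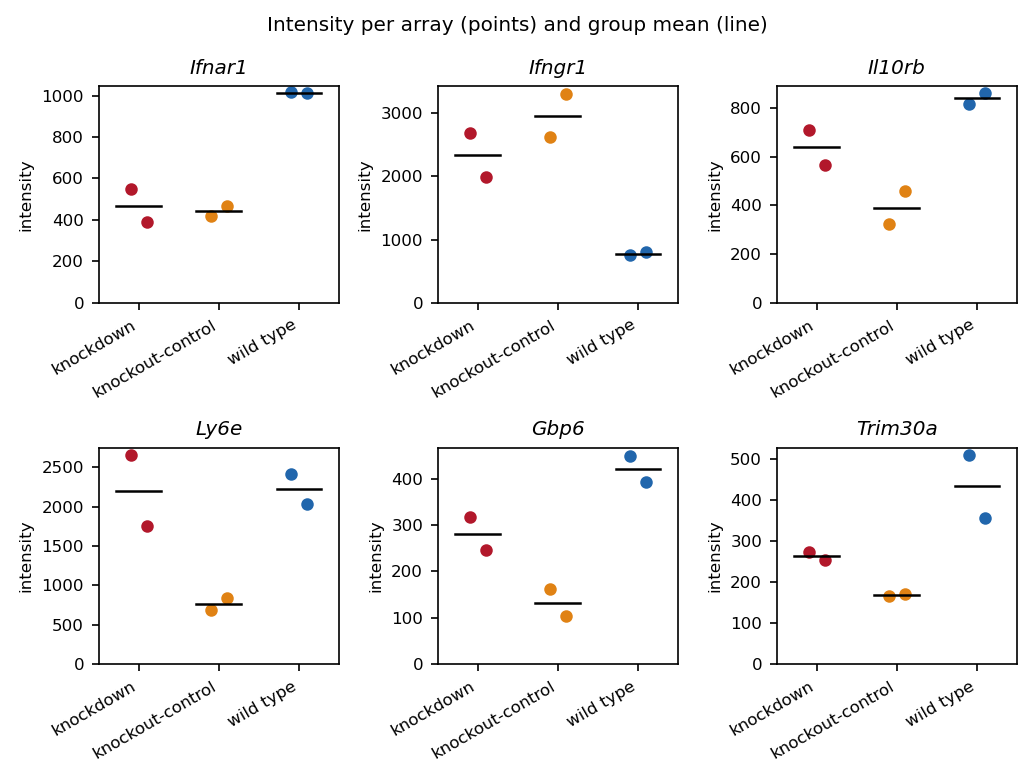
Intensity on each array of 3 receptor genes (Ifnar1, Ifngr1, Il10rb) and 3 interferon-induced genes outside the list of 44 (Ly6e, Gbp6, Trim30a), with points for arrays and a line for the group mean, on linear axes that start at 0. Ifngr1 is high and Ifnar1 low on all 4 knockout arrays, and Ly6e, Gbp6 and Trim30a are lowest on the knockout-control arrays.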

How the data were processed

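The deposited values are array intensities, 1 number for each of 45037 probe sets on each array and linear in scale, as the authors deposited them per the value table of the series. How they were summarised, scaled and background-corrected is not given in the sources used here, and no batch is named. Array medians lay between 220.9 and 242.7, so nothing was rescaled. Cells without a number (5285 holding null, 870 empty) stayed missing. Gene names came from GEO's platform annotation, updated through Entrez identifiers to the GRCm38.p6 gene table. Of the probe sets, 34945 had 1 symbol (34741 matched that table) and were used, while 932 with several symbols and 9160 unnamed here were not. The brightest probe set stood for a gene, and genes whose mean lay below the 40th percentile (7.61 in log2 units) were left out.

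Log2(intensity + 32) was fitted with limma 3.58.1 (R 4.3.3) by group means over all 6 arrays, with eBayes on 3 residual and 5.45 prior degrees of freedom. Irf8 lacked a value on knockout-control array 1 and Oas2 on knockout-control array 2, and their fits used the other arrays. A gene was called at a Benjamini-Hochberg adjusted p under 0.05 over all genes. The number of arrays limits precision, and with 2 per group an exact permutation test could not go below p = 0.333. The procedure was tested on simulated data. Members called in any comparison, or differing at least 2-fold with the brighter group above the filter, were described in full (Ifit2, Ifih1, Ifit1, Bst2), and further members by role. From each wider list the called genes were named, or the 4 with the largest change. The 44 members, the wider lists and the markers were chosen with earlier results of these data known. Promoter windows are from RefSeq on GRCm38.p6. Alternatives covered normalization, pseudocount, filter, probe sets, variance model, arrays in the fit, replicate block, null cells and each array left out. The fit on every probe set and the exchanged replicate numbers were added after seeing the data.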

Additional observations from a re-analysis of the deposited data

How the results depend on the processing

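The count of called genes among the 37 interferon response genes lay between 0 and 4 under each setting. Between knockout-control and wild type it was 1 in the reported fit, 4 after quantile normalization and with only the 4 arrays compared, 3 with trend and robust settings, 2 with median scaling or a pseudocount of 64, and 0 with no filter. Between knockdown and knockout-control it was 0, and 1 after quantile normalization, median scaling or with trend and robust settings. Between knockdown and wild type it was 1, and 2 after quantile normalization or median scaling. It was 0 with no filter, the mean of probe sets, only the 4 arrays compared or the replicate block. It was also 0 with a filter at the 60th percentile, under which Ifih1 was not tested. Leaving out each array in turn gave 0 to 4, 0 to 1 and 0 to 1. An array left out of the group not compared repeats the fit on 4 arrays. Over all genes the counts of calls, 826, 114 and 1365 as reported, ranged over the same 6 fits from 232 to 1786, 8 to 539 and 327 to 2339. They were 1653, 381 and 2301 after quantile normalization and 364, 9 and 585 with no filter.

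Whether the replicate numbers pair the arrays was not settled, since correlations across genes share each array's brightness. The correlations of the array differences over 13344 genes were 0.20 (knockout-control and wild type), -0.15 (knockdown and wild type) and -0.50 (knockdown and knockout-control). With the replicate block the counts over all genes were 410, 22 and 735, and those of the interferon response genes 1, 0 and 0. With the knockdown numbers exchanged, an alternative chosen after seeing the data, the counts over all genes were 2037, 764 and 2821 and those of the interferon response genes 4, 4 and 4.

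Among the members described in full (Ifit2, Ifih1, Ifit1, Bst2), 4 differences took either sign over the 6 fits that left out 1 array. None of the 4 passed in the reported fit. Such ranges are not given for the other members, whose signs may change as well. Bst2 between knockdown and wild type ranged from -0.460 to 0.077, and stood at 0.018 without wild-type array 1 and 0.077 without knockdown array 2. Ifit2 in the same comparison ranged from -0.317 to 0.081, its highest without knockdown array 2. Ifit1 there ranged from -0.307 (without wild-type array 2) to 0.738, and was -0.162 without knockdown array 1. Ifih1 between knockout-control and wild type ranged from -0.059 (without knockout-control array 2) to 0.269, and was -0.014 without wild-type array 2. The cause was not tested.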

Other observations

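The array differences within groups can also be set against each other for the 36 interferon response genes with a value on every array. The difference between the knockdown arrays and that between the wild-type arrays correlated at r = 0.54 across these 36 genes, against -0.15 across 13344 genes. The knockout-control difference correlated with that of wild type at -0.51 (0.20 over all genes) and with that of knockdown at -0.81 (-0.50 over all genes). These are correlations across genes, which share each array's brightness and are not independent replicates. Relative to each gene's mean over the 6 arrays, the 36 genes averaged 0.24 and -0.03 in knockdown cells. In knockout-control cells they averaged -0.19 and -0.05, and in wild-type cells 0.16 and -0.13. The medians of all genes were 0.07 and -0.10 in knockdown cells, -0.04 and 0.05 in knockout-control cells and 0.01 and 0.02 in wild-type cells. The interferon response genes on the 2 wild-type arrays thus lay farther apart than the group means of knockdown and wild-type cells.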
